A study of Mus musculus with 6 samples.

Results

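The genes described here are 10 genes that are controlled by p53 or encode it: Trp53, Mdm2, Zmat3, Ccng1, Bax, Trp53inp1, Gadd45a, Sesn1, Perp and Pmaip1. A gene was measured through every probe set that the platform annotation assigns to it alone, and 8 of the 10 genes had at least 1, giving 16 probe sets among 18192 genes with a probe set of their own. Trp53 and Bax were not analysed here, so the level of p53 messenger RNA itself forms no part of the results. The 6 Affymetrix mouse arrays each carried RNA of C2C12 cells, a mouse myoblast line, after 28 hours in medium with 2% horse serum, which makes these cells leave the cell cycle and form myotubes. In the control group 3 arrays came from cells transfected with an shRNA against GFP, and in the knockdown group 3 came from cells transfected with an shRNA against PRDM2, a histone H3 lysine 9 methyltransferase. Both groups share the cell line, the low-serum medium and the transfection of a hairpin, and the sources used here do not say whether the transfected cells were pools or clones. By the labels, the 3 replicates of a group are biological ones.

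p53 is a transcription factor that is kept scarce by the ubiquitin ligase Mdm2 and accumulates when DNA is damaged or growth is stressed. It then switches on genes that halt the cell cycle, adjust metabolism, repair DNA or open the mitochondrial path to cell death, and it also switches on Mdm2, which closes a feedback loop. Myoblasts that leave the cell cycle raise the cyclin-dependent kinase inhibitor Cdkn1a by routes that do not need p53.

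p53 binds pairs of a short element that follows a consensus known as the p53 decamer, which equals its own reverse complement, so that a search on either strand finds the same matches. RefSeq promoter sequences of build GRCm38.p6 were used for 6 of the 10 genes, in 7 windows, and the 250 bases before each gene start were searched. The search left out any member window on a certain chromosome, whereas the background share counts every window, so the shares are not over like sets. Zmat3, Trp53inp1, Perp and Pmaip1 had no window in the search, which does not show that they lack a match. A match was found in 6 of the 7 windows, against 7.13% of the 32851 windows of that length in the table. The genes were listed because p53 controls them, so this share is a description of the list and tells nothing about binding in these cells. Of the 5 windows of measured genes 4 held a match, 1 in each of 4 genes. These stretches are shown because each holds 1 match to the element, of which p53 binds pairs. Whether p53 binds them was not tested. Each runs 5′ to 3′ along the gene's strand, with the match in capitals and 25 bases on either side.
Ccng1, chr11:40755437-40755496, minus strand, match starting 185 bases before the gene start: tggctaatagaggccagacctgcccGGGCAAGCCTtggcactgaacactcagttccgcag
Mdm2, chr10:117710910-117710969, minus strand, match starting 186 bases before the gene start: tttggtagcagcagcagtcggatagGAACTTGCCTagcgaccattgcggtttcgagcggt
Gadd45a, chr6:67037413-67037472, minus strand, match starting 40 bases before the gene start: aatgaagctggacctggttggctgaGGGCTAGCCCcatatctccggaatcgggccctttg
Sesn1, chr10:41887241-41887300, plus strand, match starting 173 bases before 1 of its gene starts: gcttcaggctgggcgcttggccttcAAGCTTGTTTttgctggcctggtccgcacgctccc

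Median intensities of the arrays ranged from 10.7 to 11.4 units, and precision is limited by how few arrays there are. The muscle identity of the cells was borne out, since all 8 muscle markers, among them Myog, Ckm and Myh3, had mean intensities of 815 units (Myod1) or more, whereas the endothelial markers summed to between 11.9 and 18.3 units per array. The messenger RNA of Prdm2, the gene targeted, was read through its brightest probe set. It was not lower on the knockdown arrays (log2 fold change 0.15, SE 0.19, and -0.01 to 0.31 when any array was left out). Every direction given therefore rests on the labels. Control replicate 2 stood apart from the other controls and lay closest to knockdown replicate 2. Over the 11258 brightest probe sets the median absolute deviation of their log2 difference was 0.08, the smallest of 15 pairs of arrays, against 0.37 and 0.38 between control replicate 2 and the other controls. Knockdown replicate 2 also stood apart from knockdown replicates 1 and 3, at 0.30 and 0.27, against 0.20 between those arrays. Where leaving out control replicate 2 or another array moved a value much, that value is given beside it.

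Whether the p53 target genes responded to PRDM2 knockdown in differentiating myoblasts was asked first over all 16 probe sets. None passed the threshold of an adjusted p of 0.05 (limma, 3 arrays against 3, adjusted over 45033 probe sets), and at an unadjusted p under 0.05 there were again 0 of 16. The backgrounds were 0% and 2.94% of all probe sets. In none of the 16 did the groups separate without overlap, while 4.06% of all probe sets separated with the knockdown arrays lower and 3.18% with them higher. Of the 16 fold changes 8 lay below 0, as did 50% of all. The largest sizes belonged to Zmat3, Gadd45a and Ccng1, all lower on the knockdown arrays. With so few arrays and no block for the replicate number, the intervals were wide. A missed threshold therefore does not show that levels were equal. RNA from a whole culture cannot tell fewer cells with a transcript from less transcript per cell.

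**Figure D1:**
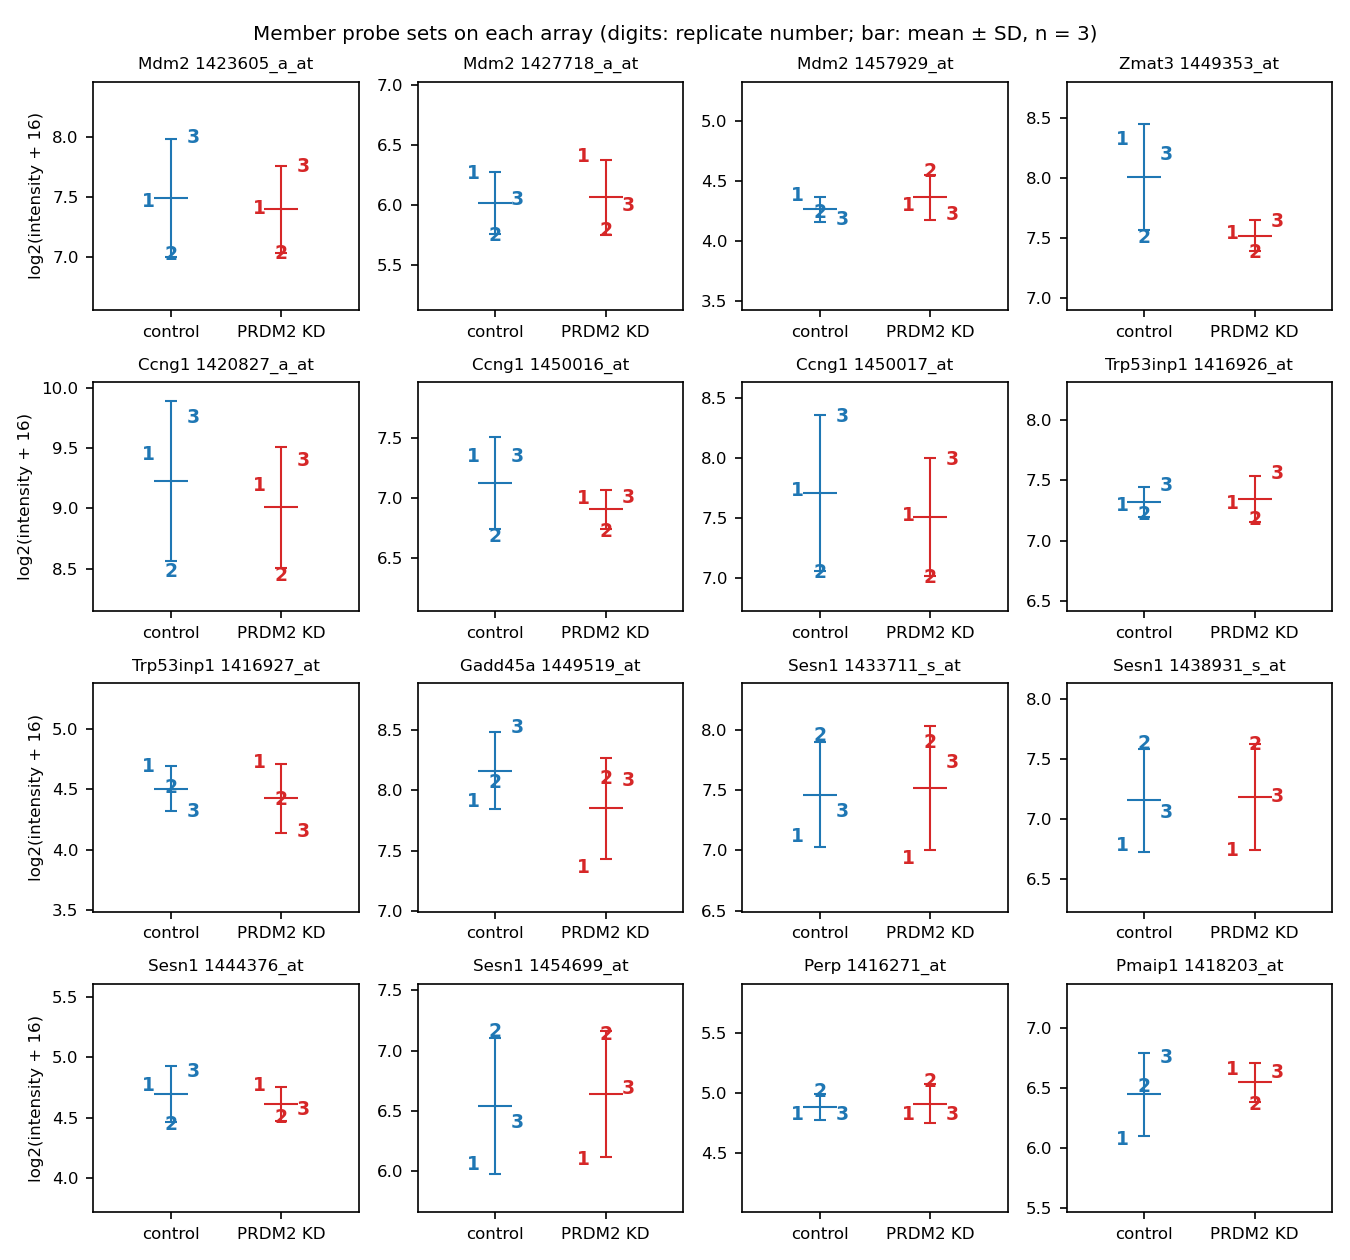
Normalised log2(intensity + 16) of the 16 probe sets on each array, with the digit giving the replicate number and the bar the mean ± SD of 3 arrays per group; every panel spans the same range of log2 units. In the 3 panels of Ccng1 and the panel of Zmat3 the arrays numbered 2 lie lowest in both groups, and in 3 of the 4 panels of Sesn1 they lie highest.

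Mdm2 encodes the ubiquitin ligase that marks p53 for destruction and is itself one of its classical targets. Its brightest probe set, 1423605_a_at, read 165, 119 and 229 units on control arrays 1, 2 and 3 and 162, 115 and 185 units on knockdown arrays 1, 2 and 3. The groups overlapped almost wholly, and the arrays numbered 2 were the lowest in each. This gave a log2 fold change of -0.10 (SE 0.28, 95% interval -0.76 to 0.57, adjusted p = 1 with limma), and it moved to -0.33 without control replicate 2 and turned to 0.16 without control replicate 3. The second probe set, 1427718_a_at, read 61.5, 39.9 and 48.2 units in the controls and 70.6, 40.7 and 44.2 units in the knockdowns. Its highest array was knockdown replicate 1 and its fold change, 0.04 (SE 0.19), had the other sign, but turned to -0.09 without control replicate 2 and to -0.13 without knockdown replicate 1. Affymetrix gives the suffix _a_at to probe sets that recognise several transcripts of a gene, and both of these carry it. The third probe set, 1457929_at, stayed between 2.09 and 7.61 units on every array, below the offset of 16 units, and has no readable order. Mdm4, the relative of Mdm2 that holds p53 inactive by binding it, stood at 0.07 (SE 0.16), and at -0.01 without control replicate 2.

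Zmat3 encodes a zinc finger protein that binds RNA and restrains growth, and it had the largest fold change of the 16 probe sets. Its only probe set, 1449353_at, read 314, 171 and 265 units on control arrays 1, 2 and 3 and 179, 151 and 169 units on knockdown arrays 1, 2 and 3. Control replicates 1 and 3 lay above all other arrays, while control replicate 2 fell inside the range of the knockdown arrays. All 6 arrays gave a log2 fold change of -0.49 (SE 0.21, 95% interval -0.999 to 0.03, unadjusted p = 0.059, adjusted p = 1 with limma). Without control replicate 2 it was -0.74 (SE 0.11, adjusted p = 0.060), still short of the threshold, in a fit in which 0.529% of all probe sets passed. The direction did not change when any 1 of the 6 arrays was left out, with values from -0.74 to -0.33. With both arrays numbered 2 left out and a block for the replicate number, Zmat3 fell by 0.67 log2 units (SE 0.10, limma adjusted p = 0.047, 2 arrays against 2). It was then the only 1 of the 16 probe sets called, against 1.59% of all probe sets. Without the block 0 of the 16 were called, against 0.127% of all. The arrays left out were singled out by how they read in these data. Their difference for Zmat3 was the smallest of the 3 numbers, so this call is no separate support for a change. Zmat3 was lower on the knockdown array for each of the 3 numbers, by -0.78, -0.12 and -0.56 log2 units for numbers 1, 2 and 3.

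Ccng1 encodes cyclin G1, which recruits a phosphatase to Mdm2 and so takes part in the feedback on p53. Its probe set 1420827_a_at read 718, 348 and 820 units on control arrays 1, 2 and 3 and 603, 328 and 601 units on knockdown arrays 1, 2 and 3. The arrays numbered 2 lay far below the other 4, which they did not overlap. Their mean was 0.50-fold that of the other 4 arrays on the log2(intensity + 16) scale, a larger contrast than that between the groups. The log2 fold change between the groups was -0.22 (SE 0.38, adjusted p = 1). The other probe sets, 1450016_at and 1450017_at, are annotated to the same transcript record and are therefore repeat readings of the gene. Probe set 1450016_at read 151, 90.8 and 140 units in the controls and 117, 90.4 and 104 units in the knockdowns, with control replicates 1 and 3 above all other arrays. Probe set 1450017_at read 205, 121 and 294 units in the controls and 178, 113 and 221 units in the knockdowns, with control replicate 3 the highest. Their fold changes were -0.22 (SE 0.20) and -0.20 (SE 0.37). All 3 readings gave nearly the same fold change with all 6 arrays. The direction was not stable in 2 of them, since 1420827_a_at turned to 0.07 without knockdown replicate 2 and to 0.05 without control replicate 3. Likewise 1450017_at turned to 0.05 and 0.12 without these arrays in turn, whereas 1450016_at stayed below 0 whichever array was left out.

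Without control replicate 2 the 3 probe sets of Ccng1 stood at -0.59 (SE 0.29), -0.44 (SE 0.11) and -0.53 (SE 0.31), and none passed (smallest adjusted p = 0.23 with limma). In that comparison 3 of the 16 probe sets, Zmat3 and 1420827_a_at and 1450016_at of Ccng1, separated without overlap with the knockdown arrays lower, and 0 with them higher. The background is 13.5% lower and 12.9% higher, so the share of members lower, 3 of 16, lies near it. At an unadjusted p under 0.05 there were 2 of the 16 (Zmat3 and 1450016_at of Ccng1), against 10.2% of all probe sets (limma). Knockdown replicate 2, which lay as low as control replicate 2 for Ccng1, stayed in these comparisons. With both arrays numbered 2 left out and a block for the replicate number, the Ccng1 probe sets stood at -0.31, -0.34 and -0.28.

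Gadd45a encodes a small protein that binds PCNA and takes part in growth arrest and DNA repair. Its probe set, 1449519_at, read 232, 260 and 335 units on control arrays 1, 2 and 3 and 156, 256 and 237 units on knockdown arrays 1, 2 and 3. Knockdown replicate 1 was the lowest array and control replicate 3 the highest, and the middle 4 arrays overlapped. They gave a log2 fold change of -0.32 (SE 0.24, 95% interval -0.90 to 0.27, adjusted p = 1 with limma), and it was -0.07 without knockdown replicate 1. Unlike Ccng1 and Zmat3, Gadd45a did not place the arrays numbered 2 at either end. Among its relatives, Gadd45b stood at 0.38 (SE 0.27), at 0.17 without knockdown replicate 1 and at 0.60 without control replicate 2.

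Sesn1 encodes sestrin 1, which restrains the growth kinase mTORC1 under stress. In its brighter probe sets the arrays numbered 2 lay highest, whereas in Ccng1 they lay lowest. Probe set 1433711_s_at read 126, 238 and 138 units on control arrays 1, 2 and 3 and 111, 220 and 182 units on knockdown arrays 1, 2 and 3. Probe set 1454699_at read 50.4, 132 and 65.6 units in the controls and 53.4, 125 and 80.8 units in the knockdowns. Probe set 1438931_s_at read 97.0, 188 and 112 units in the controls and 94.4, 180 and 120 units in the knockdowns. In all 3 the arrays numbered 2 were the highest in both groups, and their mean was 1.57-fold, 1.79-fold and 1.60-fold that of the other 4 arrays in turn on the log2(intensity + 16) scale. The fold changes between the groups were small against that spread, at 0.05 (SE 0.31), 0.10 (SE 0.35) and 0.03 (SE 0.28). Without control replicate 2 they were 0.30, 0.41 and 0.26, and without knockdown replicate 2 they turned to -0.13, -0.15 and -0.19, so their direction changed with the array left out. With both arrays numbered 2 left out and a block for the replicate number, they were 0.11, 0.17 and 0.04. The fourth probe set, 1444376_at, read only 5.42 to 14.0 units, below the offset, and has no readable order.

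Trp53inp1 encodes a stress-induced nuclear protein that aids p53 phosphorylation and autophagy, and its first probe set had the smallest SE among those of the members that read above 16 units on every array. Probe set 1416926_at read 146, 138 and 153 units on control arrays 1, 2 and 3 and 149, 129 and 160 units on knockdown arrays 1, 2 and 3. The knockdown values spanned those of the controls, with a log2 fold change of 0.02 (SE 0.12, 95% interval -0.26 to 0.31). An increase or decrease of more than 0.31 log2 units lies outside that interval. Its second probe set, 1416927_at, read at most 10.5 units.

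Pmaip1 encodes Noxa, a BH3-only protein that neutralises Mcl1 and so favours cell death. Its probe set, 1418203_at, read 51.7, 79.4 and 87.7 units on control arrays 1, 2 and 3 and 86.9, 67.7 and 77.0 units on knockdown arrays 1, 2 and 3. Control replicate 1 was the lowest array, and the other 5 lay close together. The log2 fold change was 0.10 (SE 0.18, adjusted p = 1 with limma) and turned to -0.09 without control replicate 1.

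Perp encodes a membrane protein of desmosomes that also acts in p53-dependent death. Its probe set, 1416271_at, read 12.0, 16.2 and 12.7 units on control arrays 1, 2 and 3 and 12.3, 18.2 and 12.4 units on knockdown arrays 1, 2 and 3. Only the arrays numbered 2 reached the offset of 16 units, and the log2 fold change was 0.03 (SE 0.11). Among epithelial and desmosome markers, 7 of 7 measured, the summed intensity ranged from 196 to 355 units in the controls and from 269 to 364 units in the knockdowns. The largest of the 7 on every array was Pkp1, named here after values were seen. It read 74.6, 250 and 86.0 units on control arrays 1, 2 and 3 and 205, 252 and 138 units on knockdown arrays 1, 2 and 3. The part of these markers in the reading of Perp was not tested.

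**Figure D2:**
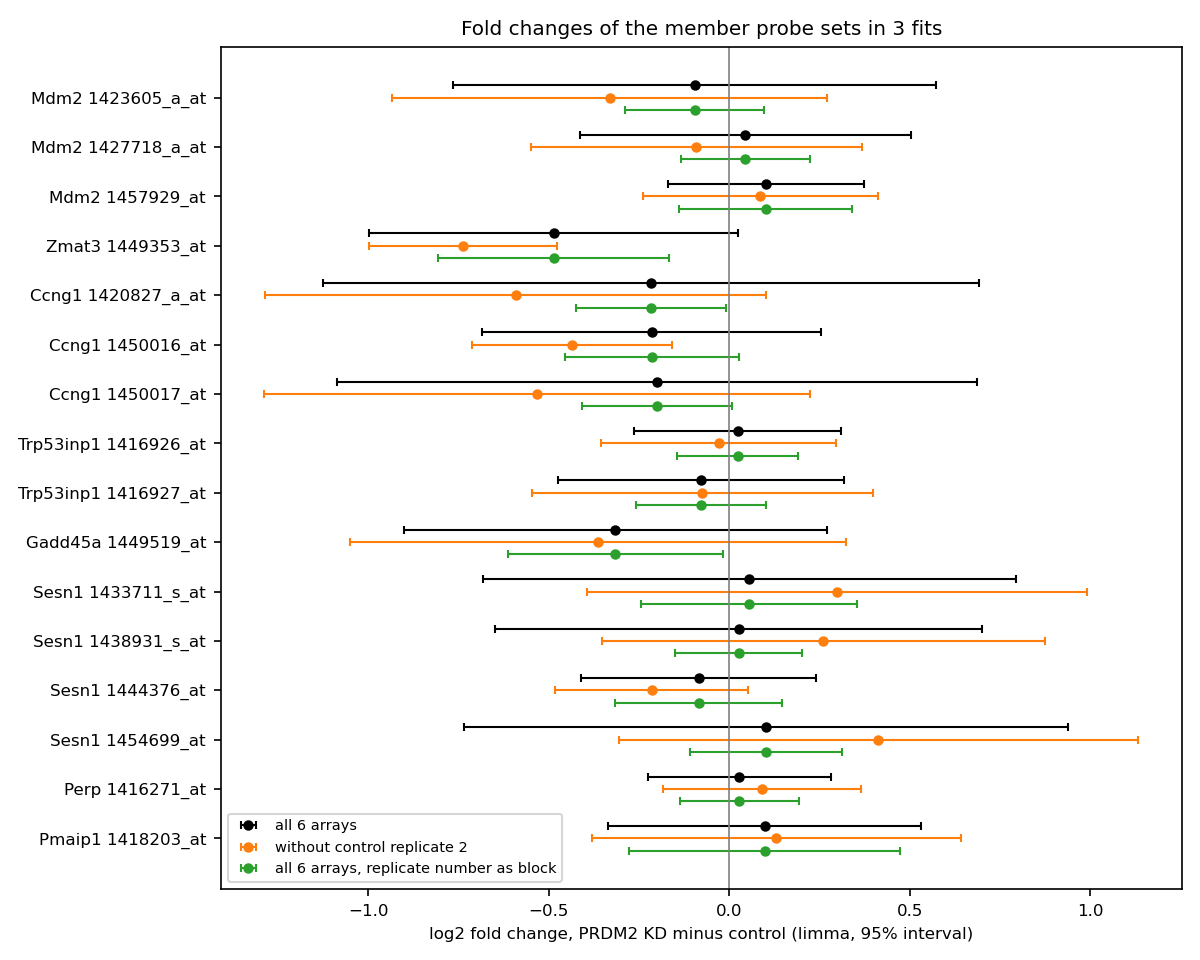
Log2 fold changes, PRDM2 knockdown minus control, of the 16 probe sets with 95% intervals from limma, for all 6 arrays, without control replicate 2 and with a block for the replicate number. Zmat3 reads -0.49, -0.74 and -0.49 in the 3 fits; with all 6 arrays and no block every interval reaches across 0, and no probe set passed an adjusted p of 0.05 in any of the 3.

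Among the 16 probe sets the arrays numbered 2 often stood apart from the other 4, whereas the groups never separated without overlap. Whether the arrays of the other replicate numbers lay together was not counted. Both arrays numbered 2 lay below the other 4 in 8 probe sets, belonging to Mdm2, Zmat3, Ccng1, Trp53inp1 and, through the dim 1444376_at, Sesn1, and above the other 4 in 4 probe sets, belonging to Sesn1 and Perp. Over all probe sets the shares were 17.6% below and 17% above. Over the 22517 probe sets at or above the median brightness they were 22.3% and 22.2%, and 7 and 4 of the 13 such probe sets of the members lay there. Probe sets of a gene are repeat readings of it, so these counts rest on 6 genes and are given as a description with no test.

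Differences between the arrays of a number show where the groups parted. Over the 13 brighter probe sets the median size of the difference between the knockdown and the control array was 0.18 log2 units for number 1, 0.04 for number 2 and 0.29 for number 3. Over all 22517 probe sets of that brightness it was 0.19, 0.06 and 0.13. For number 2 the largest difference among the 13 was 0.15, so that pair of arrays gave almost the same readings of the p53 targets. The difference was downward for all 3 numbers in 3 of the 16 probe sets, Zmat3 and 1420827_a_at and 1450017_at of Ccng1, against 15.2% of all probe sets. It was upward for all 3 numbers in 0 of the 16, against 14% of all. With the replicate number as a block, 3 of the 16 (Zmat3, Gadd45a and 1420827_a_at of Ccng1) had an unadjusted p under 0.05, against 7.84% of all probe sets, and 0 passed after adjustment (limma), against 0% of all. Their 95% intervals in that fit were -0.81 to -0.17, -0.61 to -0.02 and -0.43 to -0.009 in turn. Those of the other member probe sets reached across 0. The SEs of the 3 were 0.13, 0.12 and 0.08 with the block, against 0.21, 0.24 and 0.38 without it. Gadd45a was lower for numbers 1 and 3, by -0.54 and -0.44 log2 units, and stood at 0.03 for number 2. Sesn1 1433711_s_at gave -0.18, -0.05 and 0.40 log2 units for numbers 1, 2 and 3, and so had no shared direction.

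**Figure D3:**
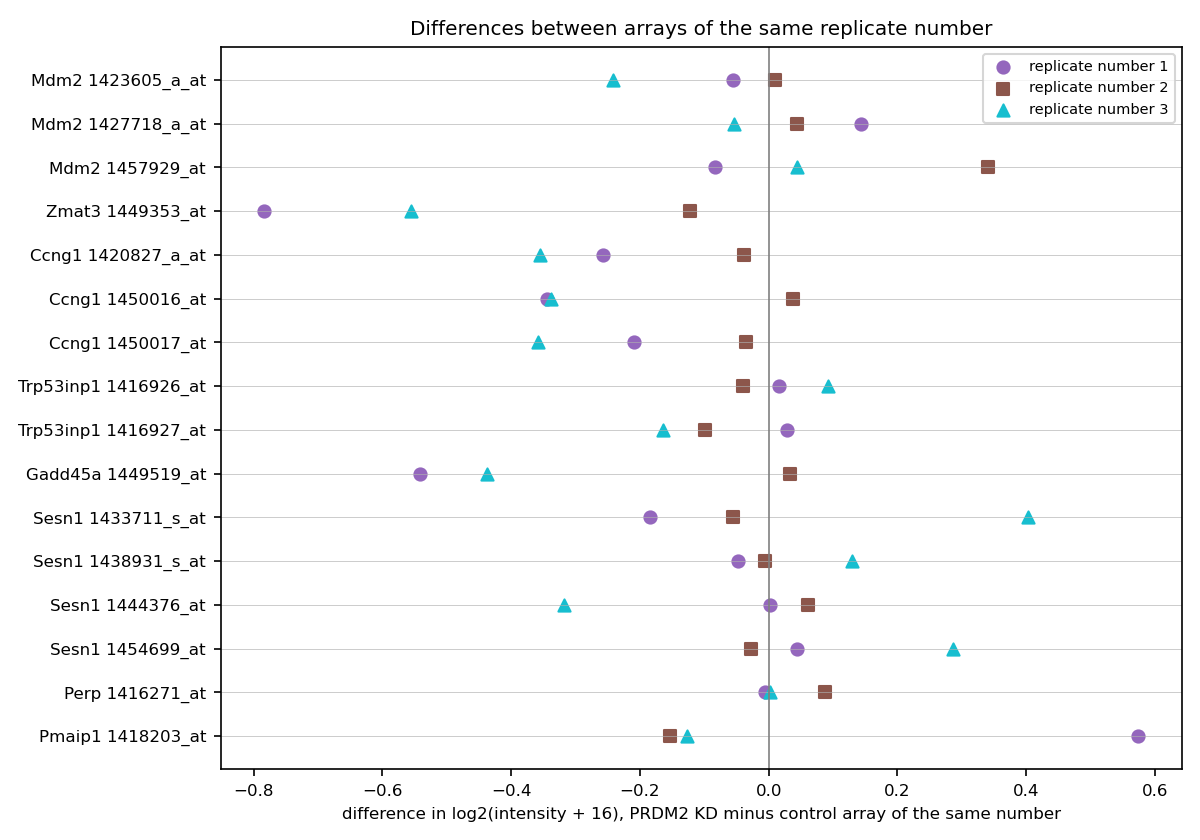
Difference in log2(intensity + 16) between the knockdown and the control array of the same replicate number, for each of the 16 probe sets. The squares of number 2 lie near 0 for the brighter probe sets, whereas Zmat3 reads -0.78 and -0.56 and Gadd45a -0.54 and -0.44 for numbers 1 and 3.

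The other genes of the pathway were taken from 6 lists that hold 67 genes, 65 of them measured, each through its brightest probe set. None of the 65 passed an adjusted p of 0.05 with all 6 arrays or without control replicate 2 (limma), where the background over 18192 genes was 0% and 0.863%. At an unadjusted p under 0.05 there were 2 of 65, against 3.72% of all genes. The median log2 fold change was -0.003 over the 65 genes and -0.003 over all genes.

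Among 16 regulators of p53, 7 lay above 0 and 9 below, and 0 passed. Chek2, a kinase that signals DNA damage to p53, read 37.0, 33.1 and 32.5 units on control arrays 1, 2 and 3 and 25.5, 28.8 and 23.5 units on knockdown arrays 1, 2 and 3. The groups did not overlap, and the log2 fold change was -0.26 (SE 0.08, unadjusted p = 0.016, adjusted p = 1 with limma). Kat5, the acetyltransferase Tip60 that modifies p53, read 85.7, 85.7 and 77.5 units in the controls and 64.5, 71.5 and 66.3 units in the knockdowns. Its log2 fold change was -0.22 (SE 0.07, unadjusted p = 0.019, adjusted p = 1). Its groups did not overlap either. Over all genes 4.24% separated in this way with the knockdown arrays lower and 2.93% with them higher, and these genes were named for their small p.

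Of 10 measured targets in growth arrest, 5 lay above 0 and 5 below, and 0 passed (median 0.01). Cdkn1a, which encodes the kinase inhibitor p21, read 1506, 1767 and 1532 units on control arrays 1, 2 and 3 and 1855, 1751 and 1738 units on knockdown arrays 1, 2 and 3, so that only control replicate 2 reached the knockdown range. Its log2 fold change was 0.19 (SE 0.10, and 0.28 without control replicate 2), opposite in sign to those of Zmat3, Gadd45a and Ccng1. Btg2, an antiproliferative gene, stood at -0.35 (SE 0.21), and at -0.52 without control replicate 2. Of 9 measured targets in repair and metabolism, 3 lay above 0 and 6 below (median -0.02, and 0.03 without control replicate 2). Cpt1c, a carnitine palmitoyltransferase, stood at -0.22 (SE 0.14), but it read below the offset on every array and has no readable order. Ephx1, an epoxide hydrolase, stood at -0.42 (SE 0.29), or -0.68 without control replicate 2. None of these genes passed (limma).

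Of 10 targets in cell death, 4 lay above 0 and 6 below (median -0.06, and -0.18 without control replicate 2), and 0 passed. The death receptor genes Tnfrsf10b and Fas stood at -0.17 (SE 0.08) and 0.14 (SE 0.09), both read below the offset on every array. The groups of Tnfrsf10b did not overlap, with the knockdown arrays lower, as in 4.24% of all genes. This gene was named for its small p, and below the offset its order is not readable. Among 13 further genes of the Bcl2 family, to which Pmaip1 and Bax also belong, 8 lay above 0 and 5 below (median 0.09). Bad, a BH3-only protein, and Bak1, which permeabilises mitochondria as Bax does, stood at -0.22 (SE 0.11) and -0.21 (SE 0.11). Of 9 relatives of the members, 6 lay above 0 and 3 below (median 0.03), with Trp53inp2 at -0.16 (SE 0.17).

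**Figure D4:**
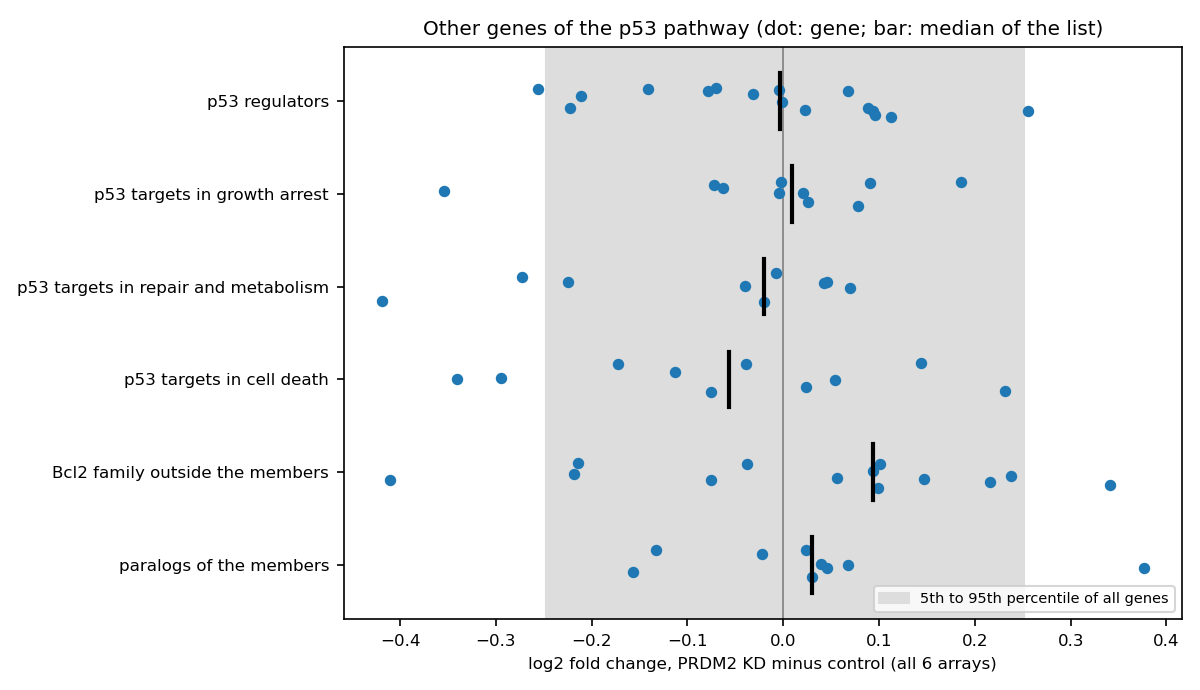
Log2 fold changes, PRDM2 knockdown minus control with all 6 arrays, of the genes in 6 lists of the p53 pathway, with a bar at each median and the grey band from the 5th to the 95th percentile of all genes, -0.25 to 0.25. The medians lie between -0.06 and 0.09, and most genes fall inside the band.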

How the data were processed

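Total RNA was extracted with Trizol and 8 ug per sample was made into biotinylated cRNA, per the labels' protocols. The authors deposited linear intensities, 1 per probe set and array. GCOS and PLIER are named in the submitters' processing notes, without version or role, and how arrays were normalised before deposit is not stated there. Of 45101 probe sets 64 controls were left out, and 4 that held their gene's Entrez number, 14699, as a value, leaving 45033. The platform annotation named 1 gene for 34941, several for 932 and none for 9160.

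Values were taken as log2(intensity + 16), which understates the change of dim genes, and quantile normalised, since the upper quartiles of the deposited columns differed by 0.15 log2 units. Intensities in the text are as deposited. Every probe set was fitted in R 4.3.3 with limma 3.58.1 (two-sided moderated test, no block). P-values were adjusted by Benjamini-Hochberg, and the threshold was 0.05. The fit was tested on simulated data with planted changes far larger than those of the members, 1 shared spread and independent arrays. That test does not show whether changes of the members' size would be found. Deviations from the group means correlated at 0.32, 0.60 and 0.62 between arrays numbered 1, 2 and 3, which the replicate block treats as pairs. These correlations depend on one another, since the deviations within a group of 3 arrays sum to 0. The pairing comes from the data, not from the labels, and number 2 rests on arrays that read almost alike. An exact permutation test of 3 against 3 cannot go below p = 0.10.

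The members and lists were chosen with earlier results of these data known. Named genes were all member probe sets, Prdm2, Cdkn1a, Mdm4, and the 2 genes of smallest p in each list. Lists of leukocyte (summed intensity 80.0 to 173 units per array) and neuronal markers (24.5 to 34.9 units) were also read. The alternatives tried were no further scaling, centring on the median, an offset of 1 or 64, a filter on dim probe sets, trend and robust eBayes, array weights, a replicate block, fits without each array or without both arrays numbered 2, and 1 probe set per gene.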

Additional observations from a re-analysis of the deposited data

How the results depend on the processing

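No call over the 16 member probe sets arose under any alternative but 1. With both arrays numbered 2 left out and the replicate block, 1 member probe set (Zmat3) and 717 of all probe sets passed; with both left out and no block, 0 and 57 passed. Leaving out 1 array gave 0 to 238 calls over all probe sets, the 238 without control replicate 2. It gave 0 to 3 member probe sets whose groups do not overlap. The 3 arose without control replicate 2, where 13.5% of all probe sets separated lower and 12.9% higher. With both arrays numbered 2 left out 3 also separated. No share over all probe sets was counted there, so that count is not read as a result. With the replicate block and all 6 arrays, 0 probe sets, 0 members and 0 pathway genes passed, so the block changed no call, with 3 members at an unadjusted p under 0.05 (limma) against 7.84% of all. Of 261 values of members under alternatives 225 kept their direction and side of the threshold, 1 passed it and 35 changed sign, all short of the threshold. Zmat3, Gadd45a and 1450016_at of Ccng1 never changed sign.

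With the deposited scaling Sesn1 1438931_s_at stood at -0.00068. With median centring it stood at -0.0024 and Trp53inp1 1416926_at at -0.0011. With array weights Mdm2 1427718_a_at stood at -0.00089. With both arrays numbered 2 left out, with or without the block, Perp stood at -0.0019 and Mdm2 1457929_at at -0.019. When each array was left out in turn, values ranged from -0.59 to 0.068 for Ccng1 1420827_a_at and from -0.53 to 0.12 for 1450017_at. They ranged from -0.33 to 0.16 for Mdm2 1423605_a_at, from -0.13 to 0.18 for 1427718_a_at and from -0.0041 to 0.17 for 1457929_at. For Sesn1 they ranged from -0.13 to 0.35 (1433711_s_at), -0.19 to 0.26 (1438931_s_at), -0.21 to 0.0090 (1444376_at) and -0.15 to 0.41 (1454699_at). For Trp53inp1 they ranged from -0.081 to 0.11 (1416926_at) and -0.22 to 0.061 (1416927_at). They ranged from -0.064 to 0.090 for Perp, -0.088 to 0.25 for Pmaip1, -0.052 to 0.21 for Mdm4 and -0.012 to 0.31 for Prdm2. The cause was not tested. Probe sets under the offset of 16 units have no readable order.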
